A study of Danio rerio with 18 samples.

Results

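Collagen genes of zebrafish were followed through m6A immunoprecipitation, Ythdf2 immunoprecipitation and endothelial RNA in the trunk at 28 hours post-fertilization (hpf). The family was chosen with earlier results of these data known. Members were matched by symbol: a collagen type number and an alpha chain number, as in col14a1b, with any closing letter and in either case. 50 of the 33737 gene IDs in the count tables met this rule, and 21939 of the 33737 carried a symbol. By the known biology of their types, 11 members build basement membranes or anchor to them (types IV, VII, XV and XVIII). The class called fibrillar below holds 7 members (types I, V and XXIV), and 10 belong to notochord sheath or cartilage (types II, IX, X and XI). Type II, kept in the latter class, also forms fibrils. A further 4 span the cell membrane (types XVII and XXIII) and 18 belong to other types (VI, VIII, XII, XIV, XVI, XIX, XXI and XXVIII).

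Collagens are secreted matrix proteins whose chains wind around each other into a triple helix. Fibrillar collagens give skin, fin folds and tendon their tensile strength, type IV forms the sheet of basement membranes under epithelia and around vessels, and types II, IX and XI fill the sheath of the notochord, the rod that supports the embryo's axis. N6-methyladenosine (m6A) is a chemical mark on messenger RNA. Mettl3 is the enzyme that writes it, while Ythdf2 recognises marked RNA and speeds its decay. The symbols are printed as the gene name table gives them, in capitals or not, and 2 IDs each share the symbols COL2A1, COL12A1, col7a1l and col19a1. Near-identical copies, such as COL1A1 and col1a1a may be, can share reads, and how the counting treated these was not tested.

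The series held 18 samples in 9 groups of 2. m6A immunoprecipitates (IP) and their inputs, which are unselected RNA of the same kind, came from embryos labelled mettl3 morphant and from embryos labelled as controls. Ythdf2 RNA immunoprecipitation (RIP) came from embryos injected with ythdf2-Flag mRNA, so the Ythdf2 that was pulled down was made from injected message. Endothelial cells came from embryos labelled mettl3 morphant, ythdf2 morphant and control, and control miCLIP samples were not used here. A morphant is an embryo injected with a morpholino, an antisense oligonucleotide against 1 message that may block splicing or translation. The sources used here do not give the type of morpholino, the injection of control embryos, the number of embryos pooled or how endothelial cells were isolated. The labels do not tie replicates to separate clutches, and the p-values cover only the spread among the libraries measured, which may be technical.

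Counts on genes, in units of 1e+06, were 32.8 to 78.3 in the m6A libraries, 5.27 and 7.90 in the RIP libraries and 3.57 to 4.75 in the endothelial columns. Collagens took 1.37 to 2.56% of gene counts in the m6A libraries, 0.840% and 1.62% in the RIP and 0.534 to 0.687% in the endothelial columns. METTL3 RNA stood at 15.7 and 48.2 CPM (counts per 1e+06 counts on genes) in the inputs labelled mettl3 morphant, against 35.8 and 19.6 CPM in control inputs. It stood at 137 and 143 CPM in the endothelial columns labelled mettl3 morphant, against 20.2 and 18.8 CPM in control columns. YTHDF2 stood at 22.7 and 29.3 CPM in the endothelial columns labelled ythdf2 morphant, against 5.69 and 9.20 CPM in control columns. The targeted RNA was thus not lower in the endothelial morphant columns and overlapped between the inputs, and a morpholino need not lower its target's RNA, so groups are named by their labels and directions rest on those labels. The 2 columns of each endothelial group differed by about their sampling noise (chi-square per degree of freedom 1.01 to 1.04 over all genes, against 59.4 to 338 in the other pairs), and were summed and counted as 1 sample. Over the collagens that statistic was 1.12 to 1.57 in the endothelial pairs.

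In the m6A IPs, 14 collagens in embryos labelled mettl3 morphant and 11 in control embryos were called higher than in the inputs. In either, 0 were called lower, though 11 in morphants and 13 in controls had ratios below 0. These calls come from a fit without the replicate number. That number as a block, which pairs the libraries, gave more calls in both directions with each label. This held for collagens and for all genes, as given below. The ratio was of counts over the whole gene, on a scale that sets the bulk of genes near 0. Of 23163 genes tested, 13.1% were called higher and 13.2% lower in morphants, and 13.7% and 14.6% in controls (edgeR quasi-likelihood test, Benjamini-Hochberg adjusted p below 0.05). 49 members passed the filter on low counts, and COL10A1 did not. Their median log2 ratio was 0.31 in morphants and 0.29 in controls, beside -0.021 and -0.027 over all genes tested. All 11 control calls were also called in morphants, and COL2A1 (ENSDARG00000011407), COL5A2 and col7a1l (ENSDARG00000069692) were called in morphants alone, a difference between labels that was not itself called in any of the 3.

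**Figure D1:**
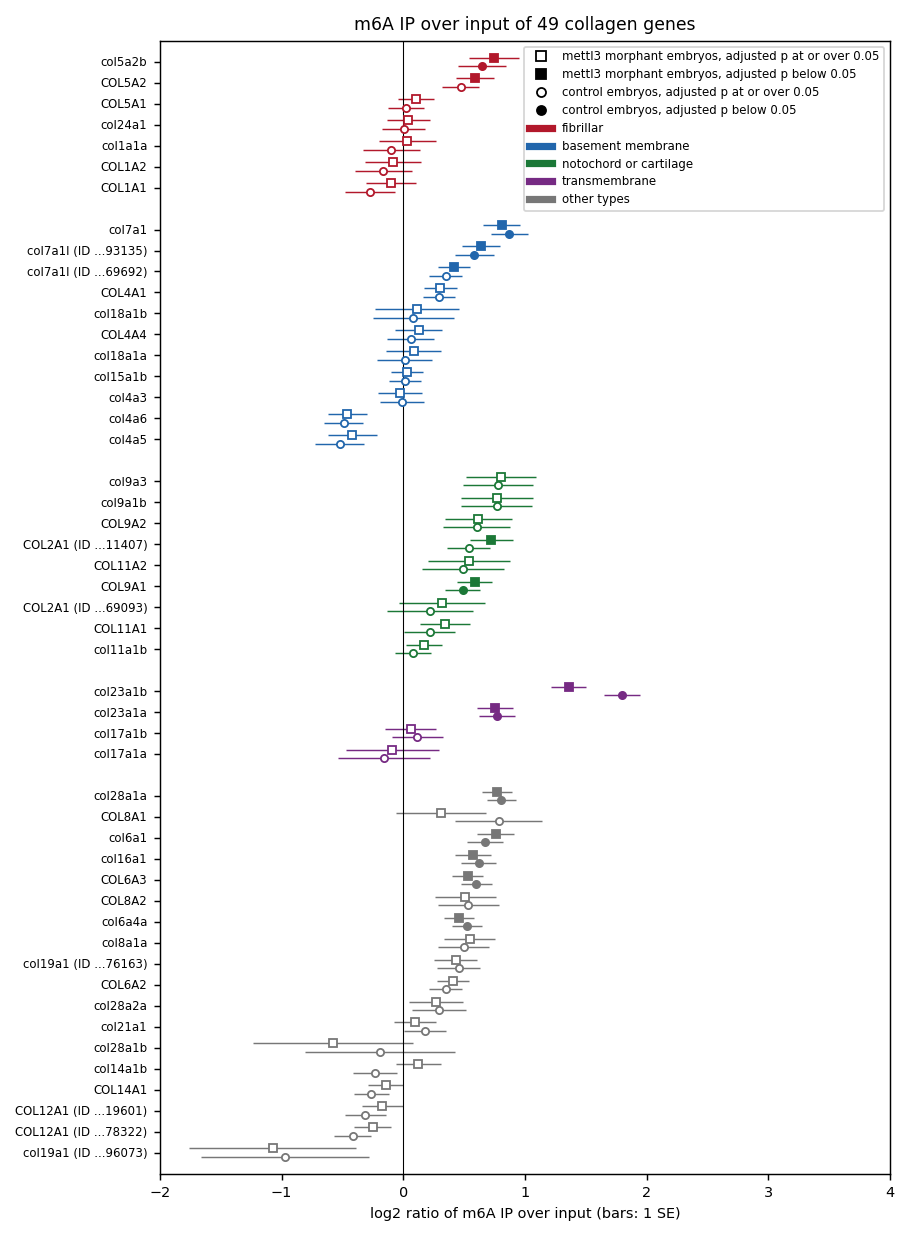
Log2 ratio of m6A IP over input (x axis) of each tested collagen (y axis, grouped and coloured by class), with squares for embryos labelled mettl3 morphant, circles for control embryos, filled marks for an adjusted p below 0.05 and bars of 1 SE. col23a1b lies farthest to the right with both labels, at 1.36 in morphants and 1.80 in controls, and col4a5 and col4a6 lie left of 0.

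The transmembrane collagen col23a1b (ENSDARG00000089078) had the highest ratio of any member. Its scaled CPM (CPM after TMM scaling of the m6A libraries) were 14.9 and 15.7 in morphant IPs, against 5.96 and 5.97 in morphant inputs. They were 16.9 and 18.1 in control IPs, against 4.71 and 5.36 in control inputs. The IPs did not overlap the inputs with either label. The log2 ratio was 1.36 ± 0.15 (SE, 2 libraries a group) in morphants and 1.80 ± 0.15 in controls (edgeR adjusted p = 0.00266 and 0.00186), and it kept its call with both labels under every alternative that was run. The paralogue col23a1a was called as well, at 0.75 in morphants and 0.77 in controls, while col17a1a and col17a1b, chains of the type XVII collagen of epidermal attachment sites, lay between -0.16 and 0.11 with both labels.

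The basement membrane members that were called were type VII genes, whose protein anchors epithelia to the matrix below: 3 in morphants and 2 in controls. col7a1 had 527 and 606 scaled CPM in morphant IPs and 337 and 309 in morphant inputs, and 606 and 643 in control IPs and 332 and 350.5 in control inputs, a log2 ratio of 0.81 and 0.87 (edgeR adjusted p = 0.00801 and 0.00565). Without control input 1 its call in controls was lost (edgeR adjusted p = 0.0548). col7a1l (ENSDARG00000093135) was also called, at 0.64 and 0.59. The other col7a1l (ENSDARG00000069692) was called at 0.42 in morphants and had 0.35 in controls (edgeR adjusted p = 0.0499 and 0.0833), close to the type IV gene COL4A1 below. The type IV chain col4a5 had 439 and 578 scaled CPM in morphant IPs and 616 and 745 in morphant inputs, and 475 and 572 in control IPs and 702 and 803 in control inputs. Its log2 ratio was -0.42 in morphants and -0.52 in controls, and that of its neighbour in the genome, col4a6, was -0.46 and -0.49. Neither was called (edgeR adjusted p = 0.155 and 0.0831 for col4a5, 0.0637 and 0.0501 for col4a6). The IPs stood below the inputs of the same label in both genes. With the replicate number as a block both passed, with an adjusted p of 0.0256 and 0.0120 for col4a5 and 0.0195 and 0.0146 for col4a6. COL4A1, which forms the common type IV network of vessel and epithelial sheets, had a ratio of 0.31 in morphants and 0.30 in controls, and col18a1a, precursor of the fragment endostatin, 0.086 and 0.013.

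Every tested notochord or cartilage member, 9 of 9, had a ratio above 0 with both labels, with a median of 0.59 in morphants and 0.49 in controls, but 2 and 1 of them passed the test (without morphant IP 2, 8 of 9 lay above 0 in morphants). With the replicate number as a block, which pairs these libraries, 6 of 9 passed with each label, and more of all genes passed too. COL9A1, a chain of the type IX collagen that coats type II fibrils, was called at 0.59 and 0.49. COL2A1 (ENSDARG00000011407) was called at 0.72 in morphants and had 0.54 in controls (edgeR adjusted p = 0.0199 and 0.0513). Type II is the main fibril collagen of notochord and cartilage, and this ID is the less counted of its 2. Its mean was 764 scaled CPM in control inputs, against 2388 for COL2A1 (ENSDARG00000069093), which was not called. col9a3 had 337 and 621 scaled CPM in morphant IPs and 235 and 314 in morphant inputs, and 644 and 545 in control IPs and 384 and 310.4 in control inputs, so IPs lay above inputs with each label, and replicate 1 was below replicate 2 in the morphant libraries and above it in the control libraries. Its log2 ratio was 0.80 ± 0.29 in morphants and 0.78 ± 0.29 in controls (SE; edgeR adjusted p = 0.0717 and 0.0759). Within numbers 1 and 2 the ratio was 0.52 and 0.98 in morphants and 0.75 and 0.81 in controls, and with the block it passed (edgeR adjusted p = 0.00863 and 0.00716). col9a1b had 0.77 and 0.77, COL11A1 0.34 and 0.22, COL2A1 (ENSDARG00000069093) 0.32 and 0.22, and col11a1b was the lowest at 0.17 and 0.08.

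Of the fibrillar genes, 2 of type V were called. col5a2b was called at 0.75 in morphants and 0.65 in controls, and COL5A2 at 0.59 in morphants, with 0.47 in controls (edgeR adjusted p = 0.0520). The third type V gene, COL5A1, lay near 0, at 0.11 and 0.025. Type I, the collagen of skin and bone, also lay near 0 or below. COL1A1 had 1293 and 1792 scaled CPM in morphant IPs and 1665 and 1636 in morphant inputs, and 1509 and 1783 in control IPs and 1956 and 2013 in control inputs. The IPs overlapped the inputs in morphants and lay below them in controls. Its log2 ratio was -0.10 and -0.27, that of COL1A2 -0.085 and -0.16, and that of col1a1a 0.033 and -0.10.

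Of the 18 members of other types, 5 were called with both labels, and they were the same 5. col28a1a, a von Willebrand domain collagen, had 44.5 and 44.6 scaled CPM in morphant IPs and 27.3 and 24.8 in morphant inputs, and 54.0 and 55.1 in control IPs and 31.7 and 30.6 in control inputs, a log2 ratio of 0.77 and 0.81 (edgeR adjusted p = 0.00466 and 0.00381). The others were the type VI genes col6a1 (0.76 and 0.67), COL6A3 (0.53 and 0.60) and col6a4a (0.46 and 0.52), whose beaded filaments surround muscle and other cells, and col16a1 (0.57 and 0.62). At the other end, col19a1 (ENSDARG00000096073) had -1.08 and -0.97 on few counts, 0.361 and 0.233 scaled CPM in morphant IPs and 0.906 and 0.371 in morphant inputs. Leaving out a library changed the counts of calls. Fewer collagens were called in morphants without input 1, input 2 or IP 2, and in controls without input 1, input 2 or IP 1. Fewer of all genes were called there too, as 1 group then held 1 library. The collagen medians, in the order above, were 0.22, 0.44 and 0.16 in morphants and 0.32, 0.35 and 0.26 in controls. Of the 14 collagens called, col23a1b and col28a1a kept every call when any 1 library was left out, and each of the other 12 lost a call with at least 1 label. With the replicate number as a block, 23 were higher and 2 lower in morphants, beside 4427 and 4526 of 23163 genes. In controls 22 were higher and 3 lower (col4a5, col4a6 and COL12A1 (ENSDARG00000078322)), beside 4568 and 4863 genes.

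No collagen passed the test of a change of enrichment between the labels. Of 23163 genes, 0 passed (0% higher and 0% lower, edgeR), and of the 84 genes at an unadjusted p under 0.05 none was a collagen. By DESeq2 1 gene passed, again no collagen. The change, morphant minus control on the log2 scale, lay between -0.47 (COL8A1) and 0.36 (col14a1b) over the 49 members, with a median of 0.049 beside 0.015 over all genes. All 7 fibrillar and all 9 tested notochord or cartilage members had a change above 0 (6 of 7 and 5 of 9 when scaled to total counts, and 2 of 9 without morphant IP 2), at most 0.17 (COL1A1) and 0.18 (COL2A1, ENSDARG00000011407). For col23a1b the change was -0.44 ± 0.20 (SE; edgeR unadjusted p = 0.0613, adjusted p = 0.99998), with lower IPs and higher inputs in the morphant libraries. The change of col9a3, 0.027, took the other sign in 6 of the alternatives, and that of col14a1b, a fibril-associated type XIV collagen (ENSDARG00000076623), was 0.36 ± 0.26 (edgeR adjusted p = 0.99998).

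In the trunk inputs, 42 of 49 collagens were lower with the mettl3 morphant label than in controls, by small amounts, and none passed the test (0 of 22561 genes called, 0% higher and 0% lower, edgeR). 47.0% of all genes lay below 0. At an unadjusted p under 0.05 there were 290 genes, 4 of them collagens, and by DESeq2 1 gene passed, which was no collagen. The collagens' median log2 ratio was -0.22, beside 0.013 over all genes. With each other scaling 42 were also below 0, and leaving out 1 library in turn gave 40 to 45. In bulk samples, fewer cells of a type and less RNA per cell cannot be told apart.

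The 4 collagens with an unadjusted p below 0.05 belong to 4 classes. col17a1a, which links epidermal cells to the basement membrane, had 10.7 and 19.7 scaled CPM in morphant inputs, against 36.6 and 23.8 in control inputs (log2 ratio -0.98 ± 0.33 SE). col14a1b had 50.7 and 58.0, against 81.4 and 75.5 (log2 ratio -0.53 ± 0.13 SE). COL2A1 (ENSDARG00000011407) had 574 and 605, against 761 and 767 (-0.37 ± 0.15 SE), and col24a1 22.9 and 22.4, against 29.4 and 26.6 (-0.30 ± 0.12 SE). The 4 were picked by that p-value on these same libraries, so morphant inputs that lay below both control inputs in each add no support. The edgeR unadjusted p-values of the 4 were 0.0247, 0.00627, 0.0448 and 0.0402, and each adjusted p was 0.99993. By class the highest and lowest ratios were -0.018 (col5a2b) and -0.30 (col24a1) for fibrils, 0.11 (col7a1l, ENSDARG00000093135) and -0.72 (col18a1b) for basement membrane, -0.15 (col11a1b) and -0.61 (COL11A2) for notochord or cartilage, 0.24 (col23a1b) and -0.98 (col17a1a) for transmembrane and 0.23 (col28a2a) and -0.53 (col14a1b) for other types.

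**Figure D2:**
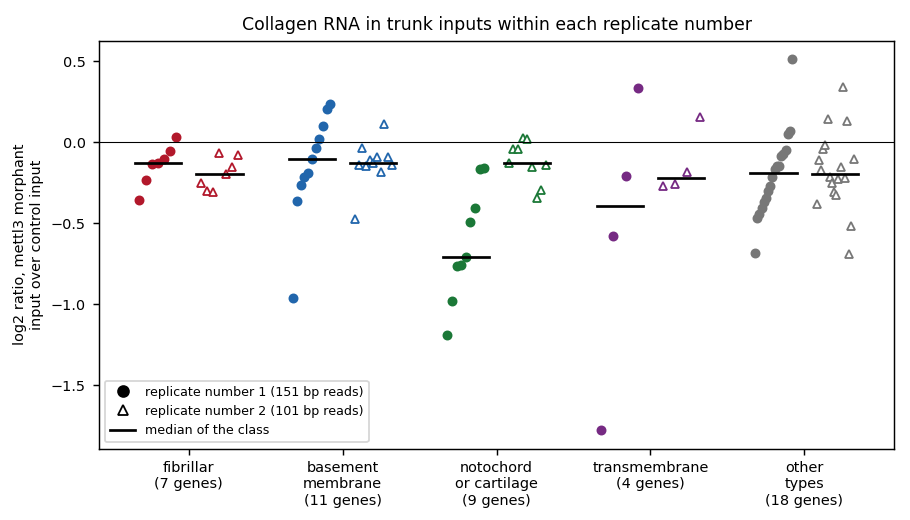
Log2 ratio of the input labelled mettl3 morphant over the control input (y axis) of each collagen within replicate number 1 (filled circles, 151 bp reads) and number 2 (open triangles, 101 bp reads), by class, with a bar at each class median. Notochord or cartilage genes sit at a median of -0.71 in number 1 and -0.13 in number 2, while the other classes differ less between the numbers.

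6 of the 9 notochord and cartilage genes were lower mainly within replicate number 1. The median ratio of the 9 was -0.71 within replicate number 1, which was read at 151 bp, and -0.13 within number 2, read at 101 bp. COL11A2 had 196 and 332 scaled CPM in the morphant inputs, against 447 and 363 in control inputs, a ratio of -1.19 in number 1 and -0.13 in number 2. COL2A1 (ENSDARG00000069093) had 1342 and 2070.1, against 2644 and 2132, a ratio of -0.98 and -0.042. The same split was seen in COL9A2 (-0.75 and 0.026), COL11A1 (-0.49 and -0.15), col9a3 (-0.71 and 0.018) and col9a1b (-0.76 and -0.041). It was not seen in COL2A1 (ENSDARG00000011407) (-0.41 and -0.34), col11a1b (-0.16 and -0.14) or COL9A1 (-0.16 and -0.30). Type I and type V genes were closer in the 2 numbers, with class medians of -0.13 and -0.20 for fibrils. COL1A1 had 1665 and 1636 scaled CPM in morphant inputs, against 1956 and 2013 in control inputs, and col1a1a 2214 and 2578, against 2419 and 2698. Replicate number 1 also held the lower METTL3 level of the morphant inputs, given above. Summed scaled CPM of 9 regulators and matrix genes of notochord and cartilage were 982 and 1159 in morphant inputs, against 1170 and 1246 in control inputs. Those of 11 skeletal muscle markers were 23063 and 15913 in morphant inputs, against 26255 and 20175 in control inputs, and those of 15 epidermis markers 34336 and 26526, against 31539 and 33187. Their part in the result was not tested.

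In the Ythdf2 RIP, fibrillar and notochord collagens were on the high side with TMM scaling, though not with total counts, and no collagen passed the test (0 of 48 tested, beside 7.15% higher and 6.56% lower of 21005 genes, edgeR). The series held no input or mock pull-down from the ythdf2-Flag embryos, so the control inputs were the reference. The ratio thus also holds differences of embryo and library, which cannot be told apart from binding here. At an unadjusted p under 0.05 there were 6 of 48 collagens, all higher, beside 7644 of 21005 genes, a larger share. DESeq2 called 9 collagens higher, beside 2957 of 21005 genes. The median log2 ratio of RIP over control input was 0.40 over the collagens and -0.19 over all genes tested. It was 0.88 for fibrils (7 of 7 above 0), 0.92 for notochord or cartilage (8 of 9 above 0) and -0.0076 for basement membrane (5 of 11 above 0), and scaled to total counts 0, 1 and 0 of them lay above 0. Over all 48, 37 lay above 0, and 2 when scaled to total counts. col28a1b and COL10A1 were under the filter.

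**Figure D3:**
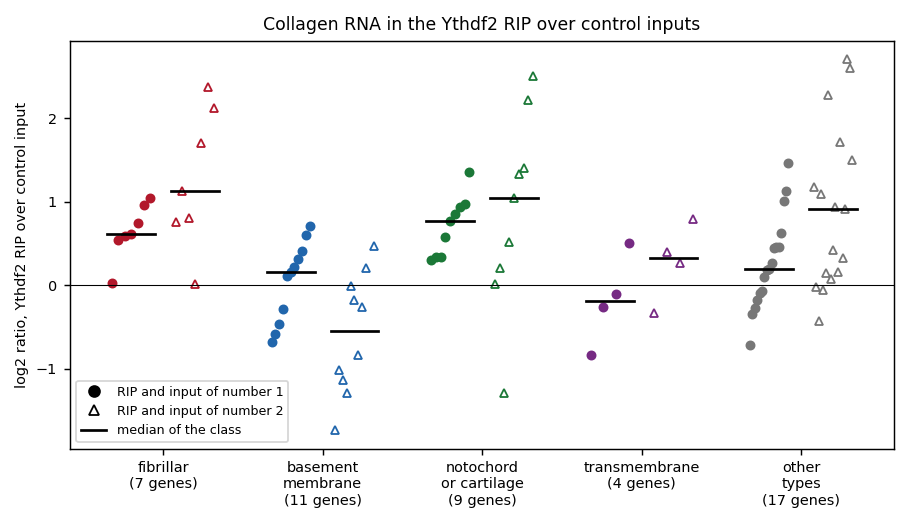
Log2 ratio of Ythdf2 RIP over control input (y axis) of each tested collagen, with RIP and input of replicate number 1 as filled circles and of number 2 as open triangles, by class, with a bar at each class median. With TMM scaling, though not with total counts, fibrillar and notochord or cartilage genes lie above 0 in nearly every case and spread to higher ratios in number 2, where basement membrane genes have a median of -0.55, against 0.16 in number 1.

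The highest ratio was that of col8a1a, a short-chain type VIII collagen. On the scale of the RIP set it had 279 and 701 CPM in the RIP, against 128 and 115 in control inputs (log2 ratio 2.01 ± 0.66 SE, edgeR adjusted p = 0.0761). COL8A2 had 15.2 and 21.6, against 5.49 and 7.62 (1.48 ± 0.43 SE, edgeR adjusted p = 0.0577). COL8A1 had a ratio of 1.89 on only 3 and 5 counts in the RIP. Both RIP libraries lay above both inputs in col8a1a and COL8A2. COL2A1 (ENSDARG00000069093) had 3390.4 and 6059.6 in the RIP, against 1319.6 and 1061 in control inputs (1.99 ± 0.73 SE, edgeR adjusted p = 0.0985), and the other COL2A1 a ratio of 1.73. COL1A1 had 1902 and 5212, against 976 and 1002 (1.85 ± 0.77 SE, edgeR adjusted p = 0.131), col1a1a a ratio of 1.71 and COL1A2 of 1.31. For each of these the RIP libraries lay above both inputs, and RIP 2 was higher than RIP 1. The genes of this paragraph were set out for high ratios in these same libraries. RIP libraries above both inputs therefore add no support. Without RIP 2 the ratios were smaller, 1.14 for col8a1a, 1.15 for COL8A2, 1.45 and 0.91 for the COL2A1 genes in the order above, 0.88 for COL1A1 and 0.91 for col1a1a. Without RIP 1 that of COL1A1 was 2.26. The lowest fibrillar ratio was 0.41 (col5a2b), and COL5A1, COL5A2, COL11A1 and col9a1b had 0.71, 0.88, 1.18 and 0.55.

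Basement membrane members held the lowest ratios. COL4A1 had 23.4 and 10.6 CPM in the RIP, against 37.4 and 35.5 in control inputs (-1.09 ± 0.51 SE, edgeR adjusted p = 0.168). It lay below both inputs, which adds no support, as it was picked for the lowest ratio. Its ratio was -1.91 without RIP 1. col4a6 had -0.79, col7a1 -0.77 and col4a3 -0.76, while col18a1a (0.59) and col4a5 (0.31) were on the high side. col23a1a had -0.59, col23a1b 0.64, COL9A1 -0.25 and col28a1a -0.34. Set side by side, the members with the highest IP ratios in controls, col23a1b, col7a1 and col28a1a, had RIP ratios of 0.64, -0.77 and -0.34, and the type I genes, near 0 or below in the IP, had RIP ratios from 1.31 to 1.85. Other members were high in both. Within numbers 1 and 2 the control IP ratio was 0.39 and 0.60 for col8a1a and 0.44 and 0.60 for COL8A2. It was 0.65 and 0.94 for COL8A1 and 0.47 and 0.60 for COL2A1 (ENSDARG00000011407). Few counts lie behind some of these: COL8A1 had 3 and 5 in the RIP and 39 and 39 in control inputs, and col23a1b 13 and 13 in the RIP. A relation between the IP and RIP ratios over all collagens was not tested. Both the control IP and the RIP were set against the same control inputs.

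The ratios also moved when a RIP library was left out. Without RIP 1 the collagen median was 0.16, beside -0.57 over all genes, and without RIP 2 it was 0.37, beside -0.23. The number of calls rose in both cases, among collagens and among all genes. Such a fit takes its spread from the 2 inputs alone, so its calls are not given. Reads outside annotated genes were 42.9 to 43.8% in the RIP libraries, against 9.07 to 13.5% in the m6A libraries and their inputs. Scaled to total counts, 28 of 48 collagens were called lower, beside 14315 of 21005 genes, and the median over all genes tested moved to -2.11. Relative to that median the collagens lay 0.60 higher, against 0.58 with TMM scaling, so direction in the RIP is relative to other genes.

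Endothelial cells line blood vessels and rest on a basement membrane. In the control endothelial pool 39 collagens were over 2-fold lower than in both control trunk inputs and 1 was higher, COL8A2 (41.7% of 21686 genes lower and 10.7% higher, all in CPM of gene counts). With 1 pool the difference has no replicate check and no test was made. 49 members were kept, with a median log2 ratio of -2.62 over input 1 and -2.83 over input 2, beside -0.71 and -0.85 over all genes kept. 13 collagens were at 0 counts in the pool, which allows up to 0.318 CPM at 3 counts. Genes were kept with at least 20 counts in the pool or in either input, and the inputs were counted more deeply. Members with under 20 counts in the pool were thus kept only through the inputs. For these members the filter itself favours a lower call.

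**Figure D4:**
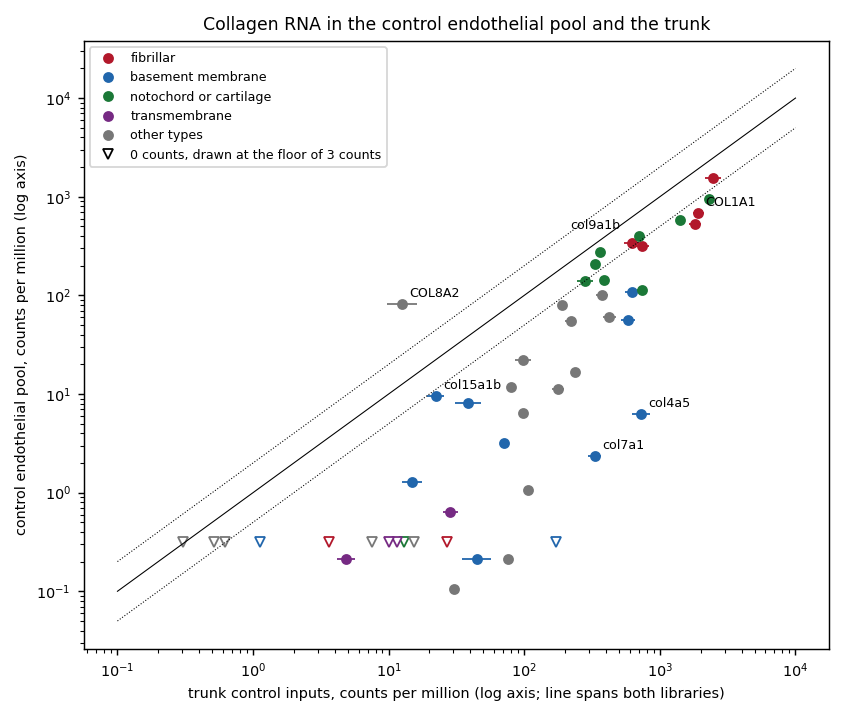
CPM of each collagen in the control endothelial pool (y axis, log) against the trunk control inputs (x axis, log, a line spanning both libraries), coloured by class, with the solid line at equality, dotted lines at 2-fold and open triangles for 0 counts drawn at the floor of 3 counts. COL8A2 lies above the upper dotted line, and basement membrane genes such as col4a5 and col7a1 lie far below the lower one.

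COL8A2, a network collagen of type VIII known from the basement membrane of corneal endothelium in mammals, had 81.7 CPM in the endothelial pool, against 9.79 and 16.1 CPM in the inputs. All 11 basement membrane members were lower. Of these, COL4A4, col18a1b and both col7a1l genes had under 20 counts in the pool and were kept only through the inputs. col4a5 had 6.26 CPM in the endothelial pool, against 624 and 845 CPM in the inputs. col7a1 had 2.34 CPM in the endothelial pool, against 295 and 369 CPM in the inputs, and COL4A1 3.18 CPM in the endothelial pool, against 66.6 and 75.1 CPM in the inputs. Closest to the trunk was col15a1b, a type XV collagen found in mammals around vessels, with 9.55 CPM in the endothelial pool, against 19.3 and 25.6 CPM in the inputs. Type IV chains were lower than each input by 3.75-fold (col4a3, input 1) or more, and col15a1b lay at the 2-fold limit. All 4 transmembrane members, 5 of 7 fibrillar, 5 of 9 notochord or cartilage and 14 of 18 other members were also lower. The transmembrane members were all kept only through the inputs.

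Several fibrillar and notochord collagens were nevertheless well counted in the pool, while col24a1, col5a2b, COL9A1 and COL10A1 were at 0 counts. col1a1a had 1547 CPM in the endothelial pool, against 2153 and 2841 CPM in the inputs, within 2-fold. COL1A1 had 678 CPM in the endothelial pool, against 1741 and 2119 CPM in the inputs. COL2A1 (ENSDARG00000069093) had 947 CPM in the endothelial pool, against 2353 and 2245 CPM in the inputs. col9a1b had 395 CPM in the endothelial pool, against 688 and 717 CPM in the inputs, and like col9a3, COL9A2 and col11a1b it was not past 2-fold. These are levels of the same gene in different RNA and not a ranking of genes. The pool held its label's markers in part: 8 of 12 endothelial markers were over 2-fold higher and 0 lower, plvapb had 733 CPM in the endothelial pool, against 21.2 and 31.9 CPM in the inputs, while cdh5, the adhesion molecule that defines endothelium, had 25.7 CPM in the endothelial pool, against 22.4 and 29.4 CPM in the inputs and plvapa was at 0. Markers of other cells went both ways. The 11 muscle markers summed to 28284 CPM in the pool, against 23368 and 21242 CPM in the inputs (1 over 2-fold higher and 3 lower), and the 11 sclerotome and fibroblast markers, precursors of tendon and bone that make type I collagen, to 243 CPM, against 284 and 347 CPM. Of the 10 of these kept, 3 were higher and 3 lower: twist1a had 84.8 CPM in the endothelial pool, against 15.6 and 18.3 CPM in the inputs, while LUM, a proteoglycan of collagen fibrils, had 0.212 CPM in the endothelial pool, against 72.8 and 77.1 CPM in the inputs, and PDGFRA and twist1b were at 0. Their part in the collagen levels was not tested.

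In the endothelial pool labelled mettl3 morphant, 3 collagens were over 2-fold higher and 11 lower than in the control pool, of 31 with at least 20 counts in 1 of the 2 pools (19.3% of 13042 genes higher and 31.7% lower). The share that was lower is near that of all genes, and the share that was higher is under it. The median log2 ratio was -0.52, beside -0.16 over all genes kept. There was 1 sample per group, so no test was made, and the 95% intervals are exact, for counting error only. Fibrillar genes were 2 of 5 lower and 0 higher, notochord or cartilage 3 of 8 lower, basement membrane 2 of 8 lower and 2 higher, and other types 4 of 10 lower and 1 higher. No transmembrane member was kept. COL4A4 was kept only through the pool labelled mettl3 morphant, and col4a3 and COL6A3 only through the control pool. The filter thus fixed the direction of these genes.

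**Figure D5:**
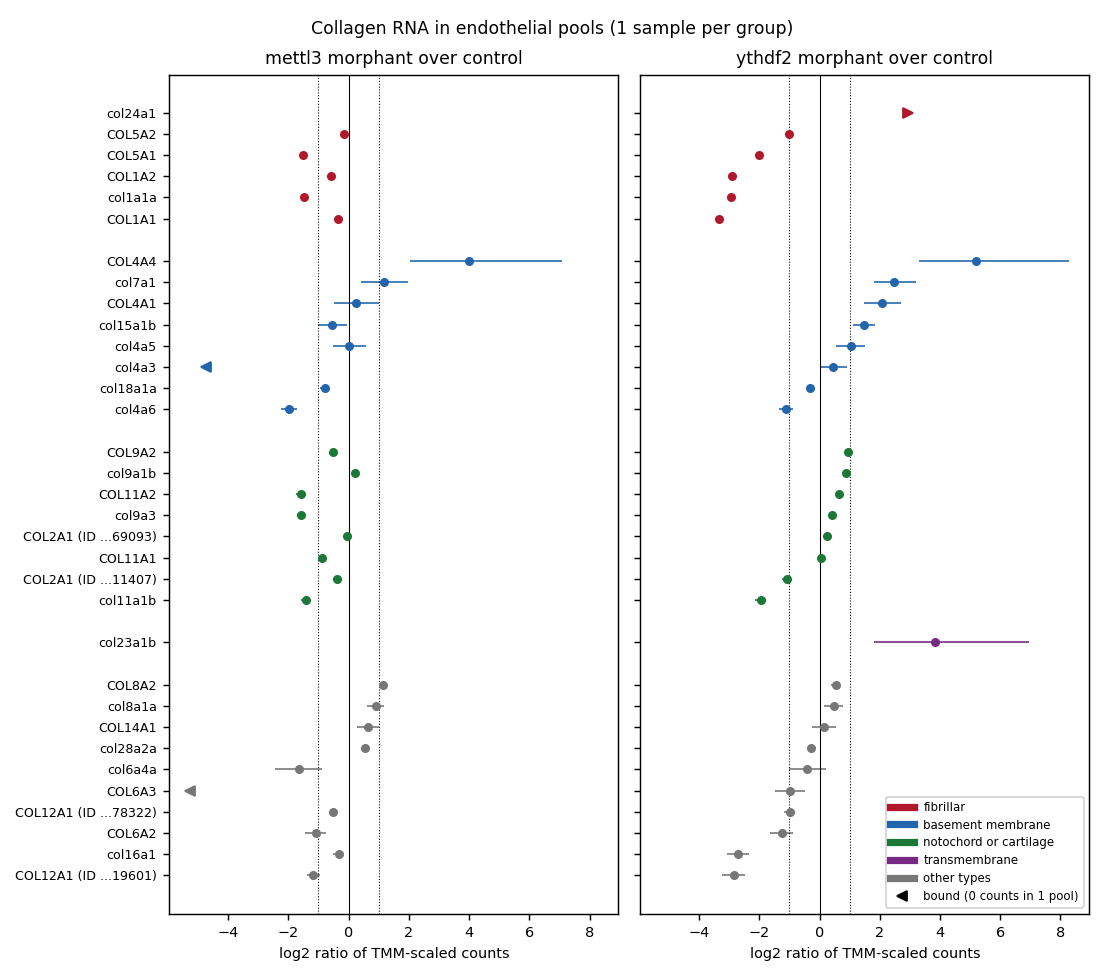
Log2 ratio of TMM-scaled counts (x axis) of each kept collagen (y axis, grouped and coloured by class) in the endothelial pools labelled mettl3 morphant (left) and ythdf2 morphant (right) over the control pool, with 95% exact intervals for counting error, dotted lines at 2-fold and triangles for bounds where 1 pool had 0 counts. With the ythdf2 label the type I genes sit between -3.35 and -2.90 and basement membrane genes such as col7a1 and COL4A1 lie right of the 2-fold line.

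The largest differences were those of genes at 0 counts. COL6A3 had 0 counts in the pool labelled mettl3 morphant, against 112 in the control pool, at least 38.6-fold lower, and col4a3 0, against 77, at least 26.5-fold lower. Its neighbour in the genome, COL4A4, had 33, against 2 (log2 ratio 3.996, 95% interval 2.03 to 7.10). The library kit does not mark strand, and reads of genes that overlap cannot be told apart. col4a6 had 140 counts, against 531 (log2 ratio -1.97, 95% interval -2.25 to -1.70). Among fibrils, col1a1a had 5436, against 14577 (log2 ratio -1.47, 95% interval -1.52 to -1.43), and COL5A1 1079, against 2974 (log2 ratio -1.51, 95% interval -1.61 to -1.41). The other type I genes stayed within 2-fold: COL1A1 had 5190 counts, against 6388 (log2 ratio -0.35, 95% interval -0.40 to -0.29), and COL1A2 a log2 ratio of -0.59.

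Notochord genes differed among themselves with the mettl3 label. col9a3 had 668 counts, against 1937 in the control pool (log2 ratio -1.58, 95% interval -1.71 to -1.46), COL11A2 467, against 1346 (log2 ratio -1.58, 95% interval -1.73 to -1.42), and col11a1b 502, against 1308 (log2 ratio -1.43, 95% interval -1.58 to -1.28). COL2A1 (ENSDARG00000069093) had 8827, against 8921 (log2 ratio -0.063, 95% interval -0.11 to -0.021), and col9a1b 4427, against 3722 (log2 ratio 0.20, 95% interval 0.14 to 0.27). Type IX partners col9a3 and col9a1b, which assemble in 1 molecule, thus lay on different sides of 0. COL12A1 (ENSDARG00000019601), COL6A2 and col6a4a were lower at -1.17, -1.09 and -1.63 on the log2 scale. Their 95% intervals reached inside 2-fold (-1.39 to -0.95, -1.45 to -0.74 and -2.44 to -0.88). On the high side were col7a1 with 51 counts, against 22 (log2 ratio 1.16, 95% interval 0.42 to 1.96), and COL8A2 with 1746, against 770 (log2 ratio 1.13, 95% interval 1.01 to 1.26). Without column 2 of each group col7a1 was under 2-fold (0.91), and col6a4a stood at -1.10 without column 1 and -2.39 without column 2. COL4A4 fell under 20 counts without column 1 and had a log2 ratio of 4.30 without column 2. Scaling to total counts gave 4 higher and 9 lower.

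With the ythdf2 morphant label the type I collagens were lower in the endothelial pool and several basement membrane collagens higher. 7 collagens were over 2-fold higher and 11 lower than in the control pool, of 33 kept (21.4% of 13202 genes higher and 32.4% lower), and both shares are near those of all genes. The median log2 ratio was 0.048, beside -0.18 over all genes kept. Fibrillar genes were 5 of 6 lower and 1 higher, basement membrane genes 5 of 8 higher and 1 lower, notochord or cartilage 2 of 8 lower and other types 3 of 10 lower. COL4A4, col23a1b and col24a1 had under 20 counts in the control pool. They were kept only through the pool labelled ythdf2 morphant, so the filter fixed their direction. Both morphant pools were set against the same control pool, so their ratios are not independent.

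COL1A1 had 553 counts in the pool labelled ythdf2 morphant, against 6388 in the control pool, 10.2-fold lower (log2 ratio -3.35, 95% interval -3.47 to -3.22). col1a1a had 1686, against 14577 (log2 ratio -2.93, 95% interval -3.001 to -2.85), and COL1A2 592, against 5012 (log2 ratio -2.90, 95% interval -3.02 to -2.77). The 3 type I chains were lower together. The type V chains COL5A1 and COL5A2, which join type I fibrils, were lower at -2.003 and -1.01. So were COL12A1 (ENSDARG00000019601), which coats fibrils, at -2.85, col16a1 at -2.70, COL6A2 at -1.25, and the cartilage genes col11a1b and COL2A1 (ENSDARG00000011407) at -1.94 and -1.09. The 95% intervals reached inside 2-fold for COL5A2 (-1.10 to -0.92), COL6A2 (-1.65 to -0.87) and COL2A1 (ENSDARG00000011407) (-1.26 to -0.93). Without column 2 COL5A2 (-0.97) and COL6A2 (-0.94) were under 2-fold. The more counted COL2A1 (ENSDARG00000069093) had 9312 counts, against 8921 (log2 ratio 0.25, 95% interval 0.20 to 0.29), and col9a3 2277, against 1937 (log2 ratio 0.42, 95% interval 0.33 to 0.51).

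On the high side, COL4A4 had 65 counts, against 2 in the control pool (log2 ratio 5.21, 95% interval 3.30 to 8.28), and col7a1 108, against 22 (log2 ratio 2.48, 95% interval 1.81 to 3.21). COL4A1 had 112, against 30 (log2 ratio 2.08, 95% interval 1.49 to 2.72), col15a1b 221, against 90 (log2 ratio 1.48, 95% interval 1.12 to 1.85), and col4a5 106, against 59 (log2 ratio 1.03, 95% interval 0.56 to 1.51). col4a6 went the other way, with 216, against 531 (log2 ratio -1.11, 95% interval -1.35 to -0.88), and its ratio was -0.79 without column 1 and -1.44 without column 2. The transmembrane col23a1b had 25 counts, against 2 (log2 ratio 3.83, 95% interval 1.82 to 6.95), and col24a1, a fibrillar gene, 20, against 0, at least 7.58-fold higher. Without column 1 of each group 4 collagens were higher, and without column 2, 5: col23a1b and col24a1 fell under 20 counts in both cases, and col4a5 was under 2-fold without column 1 (0.93).

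Markers of several cell types differed between the pools along with these collagens. Scaled CPM of 11 sclerotome and fibroblast markers summed to 206 in the pool labelled mettl3 morphant and 60.5 in the pool labelled ythdf2 morphant, against 281 in the control pool. 1 and 4 of the 6 kept were lower. DCN, a small proteoglycan that binds collagen fibrils, had 271 and 67 counts, against 780, and PDGFRA and tnxba were at 0 in every pool. Muscle markers summed to 1743 and 7218, against 32712 in the control pool (11 and 9 of 11 lower), and epidermis markers to 6549 and 11911, against 5612. The epidermis sums are mostly krt8 and krt18a.1: krt18a.1 had 36195 and 47607 counts, against 21859. Of the 15 epidermis markers 0 were higher and 9 lower with the mettl3 label, at a median log2 ratio of -1.90, and 6 higher and 5 lower with the ythdf2 label. Endothelial markers summed to 5932 and 6372, against 2856 (4 and 7 of 11 kept higher, 0 and 2 lower), but cdh5 had 212 and 23 counts, against 242. 9 notochord and cartilage regulators summed to 912 and 763, against 1462. Blood markers summed to 96.2 and 101, against 4006 in the control pool. That control sum is almost wholly 1 gene, MYB, with 26 and 105 counts, against 31122 of the control pool's 32632, though 6 of 8 kept were lower with each label. Pigment markers summed to 72.8 and 18.97, against 262 (5 and 6 of 6 lower), and neural markers to 676 and 296, against 714 (3 and 5 of 8 lower). The part of these cell types in the collagen differences was not tested.

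Of 46 genes in 6 lists that fold, secrete, crosslink, bind and break down collagen, or build basement membranes beside it, 43 were tested in the IPs. Of the 9 that fold and modify chains, 6 in morphants and 5 in controls lay above 0, and of 10 basement membrane partners 5 and 4. Of 8 secretion genes 7 lay below 0 with each label, and of 8 for processing and crosslinking 6 and 5. Over the 43, 29 and 30 lay below 0, beside 51.1% and 51.3% of all genes. In morphants 0 were called higher and 3 lower, beside 13.1% and 13.2% of all genes. In controls 2 were called higher and 7 lower, beside 13.7% and 14.6%, so the lower calls were under the share of all genes in morphants and near it in controls. HSPG2, the basement membrane proteoglycan perlecan, had -0.58 in morphants and -0.78 in controls, and PLOD2, which hydroxylates collagen lysines, -0.65 and -0.72, all called lower (edgeR adjusted p = 0.0214 and 0.00699 for HSPG2, 0.0201 and 0.0129 for PLOD2). P3H1, which hydroxylates collagen prolines, was called higher in controls at 0.90 and had 0.81 in morphants (edgeR adjusted p = 0.0395 and 0.0588). The 4 receptor genes (DDR1, ITGA1, ITGA2 and ITGA10) and the 4 breakdown genes (MMP2, MMP9, mmp13a and RECK) all lay below 0 with both labels, none of them called.

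In the RIP, 2 of the 43 partner genes were called higher and 1 lower, each under the share of all genes (7.15% and 6.56%). AGRN, the basement membrane proteoglycan agrin, had 2.72 and TLL1, which trims procollagens, 2.72 (edgeR adjusted p = 0.0350 and 0.0257), and the collagen receptor subunit ITGA2 had -1.80 (edgeR adjusted p = 0.0403). 0 partner genes were called in the trunk inputs (1 with an unadjusted p below 0.05, edgeR). Of 8 tested regulators and matrix genes of notochord and cartilage, the transcription factors SOX5, SOX6 and FOXA2 were called higher in the IP with both labels, at 0.56, 0.57 and 0.63 in morphants and 0.64, 0.62 and 0.77 in controls. hapln1a, a cartilage link protein, was called lower at -0.64 and -0.69. SOX5 was also called in the RIP, at 2.69 (edgeR adjusted p = 0.0375). serpinh1b, the collagen chaperone, and the notochord and cartilage regulators tbxta and sox9a matched no ID and were not analysed here.

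The remaining members complete the set in the endothelial pools. COL9A2, COL11A1, COL14A1, col8a1a, col18a1a, col28a2a and COL12A1 (ENSDARG00000078322) were within 2-fold of the control pool with both labels, as were col9a1b and COL2A1 (ENSDARG00000069093). COL4A1, COL5A2, col4a5, col15a1b, col16a1, COL1A1, COL1A2 and the other COL2A1 were within 2-fold with the mettl3 label alone, and COL6A3, COL8A2, COL11A2, col4a3, col6a4a and col9a3 with the ythdf2 label alone. col14a1b had 0 and 0 counts, against 2 in the control pool, beside 72.4 and 79.5 CPM in the control trunk inputs. 16 and 14 collagens were at 0 in the morphant pools, against 13 in the control pool.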

How the data were processed

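The data were counts per gene in 16 tables of 33737 Ensembl IDs, which the authors deposited, aligned by TopHat2 2.0.9 and then counted in HTSeq, at version 0.5.3p9 where one is named, per the submitters' processing notes. Annotation release and the counting's strand setting: not given in the sources used here. Reads of genes that overlap or of near-identical copies may be split between them. The deposited peak and site lists were not used here: they hold positions without gene IDs. Reads outside annotated genes (42.9 to 43.8% of the RIP reads, 9.07 to 13.5% of the m6A reads and 9.49 to 10.5% of the endothelial ones) stayed out of library sizes.

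Symbols came from a gene name table, and IDs of the same symbol were kept apart. 7 further collagen IDs of that table were not analysed here. The members and lists were chosen with earlier results of these data known.

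Trunk and RIP counts were fitted in R 4.3.3 with edgeR 4.0.16 (limma 3.58.1): filterByExpr, TMM scaling, quasi-likelihood test, Benjamini-Hochberg adjustment over all genes tested, threshold 0.05. IP over input and its change came from 1 fit of 8 libraries, inputs from a fit of 4, and RIP over control input from a fit of 4. Each SE was worked back from the F statistic of its test, with the spread taken from all libraries of the fit. Checks on simulated data ran first. Replicate numbers pair the m6A libraries: number 1 was read at 151 bp and number 2 at 101 bp per the labels, and same-numbered libraries deviated together (correlations of 0.358 to 0.574 over 23163 genes). Fits with that block were an alternative.

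Endothelial columns were summed per group. Ratios of TMM-scaled counts, for genes with at least 20 counts in 1 pool, carry 95% exact (Clopper-Pearson) intervals, and a count of 0 was set to a floor of 3 counts over the pool. Intervals and floors cover counting error only. Endothelial and trunk levels were compared in CPM of gene counts. A 2-fold difference, against both inputs for the trunk, was the limit. That limit was set on the ratio itself, not on its interval.

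The text names members called or past 2-fold with the largest size (up to 20), the highest and lowest of each class, the 12 of highest level in control inputs, col14a1b, col23a1b and col9a3, and of each other list up to 2 genes with the largest rise and 2 with the largest fall per comparison, plus cdh5. Some partner genes and receptors outside that rule were named after their values were seen.

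Alternatives were RLE size factors (the scaling of DESeq2), total counts, DESeq2 1.42.0, no filter, the block, other inputs as the denominator of the RIP, a minimum of 50 counts in pools and leaving out each library.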

Additional observations from a re-analysis of the deposited data

How the results depend on the processing

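Counts of collagens called depended on scaling, tool and library. Of 49 collagens, 2 changed the direction of their IP ratio with total counts with each label. In the m6A IP, total counts left 2 called higher in morphants and 4 in controls, beside 930 and 1533 of 23163 genes. DESeq2 gave 17 higher and 2 lower in controls, beside 3596 and 3412 genes, and 1 lower in morphants, beside 3195. The replicate block gave 23 higher and 2 lower in morphants, beside 4427 and 4526 genes. In controls it gave 22 higher and 3 lower, beside 4568 and 4863 genes. The block ended no call of a named gene, and total counts moved the median of all genes to 0.086 in controls. Leaving out 1 library gave 5 to 14 higher in morphants and 2 to 15 in controls. In the RIP, RLE size factors gave 1 higher (COL8A2), DESeq2 9, morphant inputs as denominator 1 (COL8A2), and total counts 28 lower; leaving out 1 library gave 0 to 19 higher and 0 to 5 lower. RIP and input of a number share only that number (correlation of deviations -0.0128), and the replicate block gave 0 higher and 0 lower.

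Under total counts the RIP ratio changed sign for 35 of 48 collagens, all 7 fibrillar genes included, for example COL8A2 (-0.45), COL2A1 (ENSDARG00000011407) (-0.17), COL1A1 (-0.051), col1a1a (-0.19), col14a1b (-1.15), col9a3 (-1.73) and col23a1b (-1.29), with the shift of all genes given above, and that of col9a3 ran from -0.28 without RIP 1 to 0.50 without control input 1. The change of enrichment of col9a3, near 0, turned to -0.0096 with total counts, -0.026 with the block, and -0.13, -0.13, -0.16 and -0.48 without control input 1, control IP 2, morphant input 1 or morphant IP 2, and was 0.41 without morphant IP 1. Inputs and the change of enrichment had 0 collagens called under every alternative run. In the endothelial pool labelled ythdf2 morphant, leaving out 1 column of each group gave 4 to 5 higher, with the genes given above. Other endothelial counts of collagens stayed within 1.5 times. Where 1 library was left in an arm, it was assumed to vary like the others. The cause of these differences was not tested.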
